A study of Mus musculus with 4 samples.

Results

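The STAT transcription factors and the feedback genes they switch on were measured in natural killer (NK) cells with and without the long form of Gabpb1 and Gabpb2. The group holds 10 genes out of 37310 listed per sample. They are the STAT genes Stat3, Stat4, Stat5a and Stat5b, the suppressor of cytokine signalling (SOCS) family genes Cish, Socs1, Socs2 and Socs3, and the PIM kinase genes Pim1 and Pim2. Each symbol was matched to 1 row of the tables, and all 10 passed the filter on low counts.

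The cells came from the marrow of C57BL/6 mice (6 to 8 weeks old) and were sorted as CD3e-negative, NK1.1-positive and CD49b-positive lymphocytes. The 2 dKO libraries came from mice of the genotype Gabpb1l-/-Gabpb2-/-, which lack the GABPα2β2 tetramer. The 2 Ctrl libraries came from littermates. The complex belongs to the Ets family: its Gabpa subunit contacts DNA and its Gabpb subunit carries the activating part. The labels name no Cre driver, and do not say how many mice gave each library.

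Cytokines such as IL-15, IL-12 and IL-21 bind receptors on NK cells that carry Janus kinases (JAKs). The JAKs phosphorylate STAT proteins, which pair, enter the nucleus and bind DNA. Among the genes that STATs switch on are the SOCS genes, whose proteins dampen the same receptors, and the PIM genes, which encode kinases that promote survival and growth. In NK cells Stat5a and Stat5b relay IL-15 signals that keep the cells alive, Stat4 relays IL-12 signals that drive interferon-gamma production, and Cish restrains the response to IL-15.

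Gene counts per library summed to 31469644 and 30233870 in dKO and 34724516 and 33299226 in Ctrl, and both dKO libraries had more detected genes (19450 and 19220) than both Ctrl libraries (15921 and 18206). Levels of a gene are given as CPM, counts scaled to the size of the library, and levels of different genes are compared as TPM, which is also scaled by transcript length. A positive log2 fold change means a higher level in dKO. Gabpb2 fell to 2.75 ± 0.142 CPM in dKO, against 33.5 ± 4.34 CPM in Ctrl (SD, n = 2 each), a log2 fold change of -3.61 with a standard error (SE) of 0.26 and an edgeR adjusted p of 0.00126. Neither Gabpb1 (0.56 on the log2 scale, edgeR adjusted p = 0.273) nor Gabpa (0.30, edgeR adjusted p = 0.578) passed. Counts of the entire Gabpb1 gene mix its long form with the others and do not check that allele. Xist had 2 and 9 counts in the dKO libraries and 6066 and 6430 counts in the Ctrl libraries, and the 4 Y-linked markers had 0 counts in both Ctrl libraries and at least 1032 counts in both dKO libraries. The labels give no sex, and genotype and these sex-linked transcripts cannot be told apart in any difference below. All 12 NK markers were detected in every library, and none of the 12 was called. Their summed level was 16525 to 17445 TPM in dKO and 20562 to 21534 TPM in Ctrl. Both dKO libraries lay below both Ctrl libraries for 6 of the 12, where 19.9% of tested genes did so. Both lay above for 0, where 21.7% did. The log2 fold change was negative for 8 of these markers and positive for 4.

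None of the 10 genes passed the threshold between dKO and Ctrl (edgeR, adjusted p under 0.05), where 0.611% of the 13904 tested genes did. Sorted by their values, the genes fell into 2 sets. Socs2, Socs3, Pim1 and Pim2 were about 2-fold higher in dKO, with 95% intervals above 0 on the log2 scale and both dKO libraries above both Ctrl libraries. The 4 STAT genes, Cish and Socs1 overlapped between the groups. Both dKO libraries lay above both Ctrl libraries for 4 of 10 genes, where 21.7% of tested genes did so, and both lay below for 0 of 10, where 19.9% did (41.6% in either direction). The unadjusted p was under 0.05 for 4 of 10 genes, where it was for 10.6% of tested genes. DESeq2 called 3 of the 10 (Pim2, Socs2 and Socs3), where it called 2.86% of the 13904 genes. Without the filter on low counts edgeR called 4 (Pim1 as well), where it called 2.4% of 23322 genes, and limma-voom called 0, where it called 0.654%. The smallest two-sided p that an exact permutation test can reach with 2 libraries a group is 0.333, and the p-values given here borrow their spread from the other genes.

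**Figure D1:**
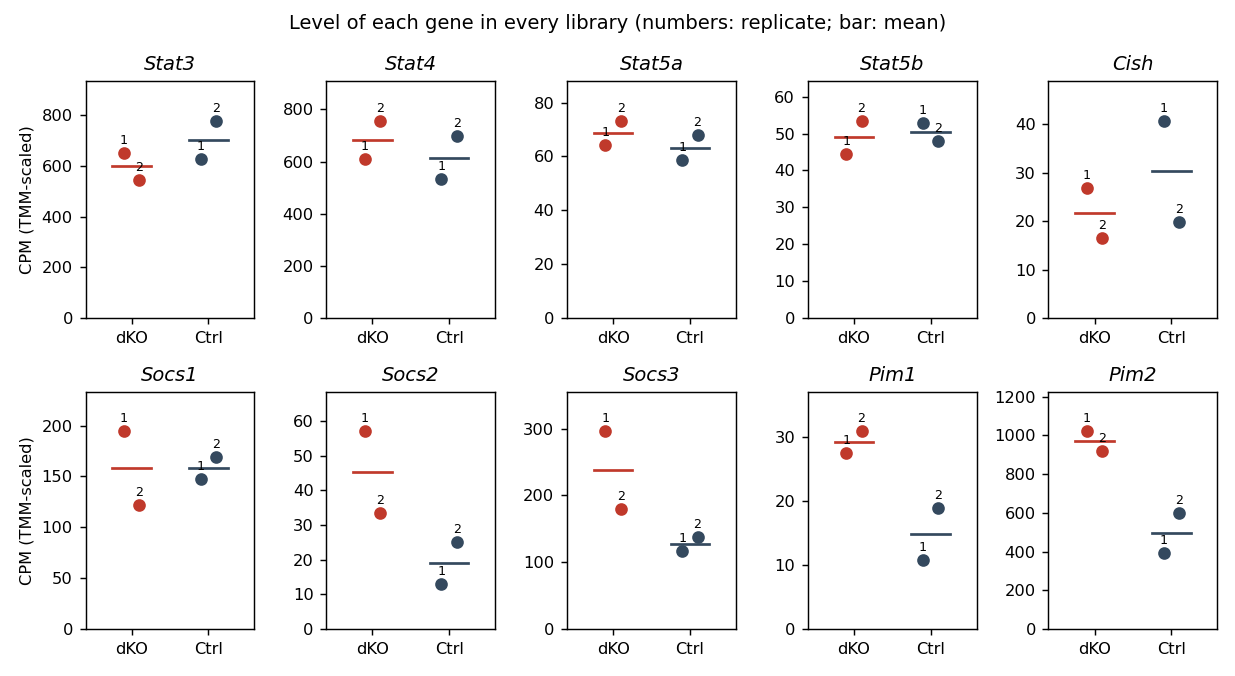
CPM of the 10 genes in each of the 2 dKO libraries (red) and the 2 Ctrl libraries (dark), with the mean as a bar and the replicate number beside each point. Pim2, Pim1, Socs2 and Socs3 have both dKO points above both Ctrl points, and in the other panels the groups overlap.

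Of the STAT genes, Stat4 and Stat3 were the abundant ones. Stat4, the transducer of IL-12 signals, was at 386 and 426 TPM in dKO 1 and dKO 2 and at 312 and 427 TPM in Ctrl 1 and Ctrl 2. Its scaled counts were 611 and 757 CPM in dKO and 534 and 697 CPM in Ctrl. The lowest and the highest library thus lay in different groups but the ranges overlapped, and the difference was 0.15 on the log2 scale (95% interval -0.28 to 0.58, edgeR adjusted p = 0.852). Stat3, which relays IL-6, IL-10 and IL-21 signals, was at 652 and 543 CPM in dKO and 628 and 779 CPM in Ctrl. Its lowest library was dKO 2 and its highest Ctrl 2, and the log2 fold change was -0.23 (95% interval -0.63 to 0.16, edgeR adjusted p = 0.723).

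Stat5a and Stat5b encode close paralogs that both act below the IL-2 and IL-15 receptors, and reads of their shared stretches may be split between them. Stat5a was at 64.4 and 73.3 CPM in dKO and 58.7 and 67.9 CPM in Ctrl. The groups overlapped, with a log2 fold change of 0.12 (95% interval -0.29 to 0.54, edgeR adjusted p = 0.885). Stat5b was at 44.5 and 53.5 CPM in dKO and 53.0 and 47.8 CPM in Ctrl, with the Ctrl values inside the dKO range. Its log2 fold change was -0.04 (95% interval -0.48 to 0.40, edgeR adjusted p = 0.974). Per length, Stat5a exceeded Stat5b in every library, by a TPM ratio of 2.53 and 2.37 in dKO and 1.78 and 2.22 in Ctrl. The intervals of the 4 STAT genes leave room for changes between 0.645-fold (the lower bound of Stat3) and 1.497-fold (the upper bound of Stat4).

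The genes Stat5b, Stat5a and Stat3 are neighbours. On GRCm38 Stat5b spans chr11:100780731-100850724 on the minus strand, Stat5a chr11:100859351-100885169 on the plus strand and Stat3 chr11:100885098-100939540 on the minus strand. The 3′ ends of Stat5a and Stat3 share 72 bases. Stat4 lies apart at chr1:51987148-52107189, where it shares 29929 bases with the noncoding gene Gm28177 on the same strand and 432 bases with the pseudogene Gm3940 on the other. Cish shares 1459 and 1167 bases with Gm17041 and Gm17040, which lie antisense to it, and Pim1 shares 1173 bases with the antisense gene Gm26885. The strand setting of the counting is not given in the sources used here, so reads of a gene and its antisense partner cannot be told apart. The ratio of whole-number count to RSEM expected count was 1.34 to 1.54 for Cish and 2.29 to 3.42 for Pim1, and between 1.97 and 2.37 for the other 8 genes. These positions come from the GENCODE M21 annotation and are not those of the build mm9 that the submitters' processing notes name.

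The weighted mean transcript length in the authors' deposited RSEM tables, which moves with the mix of transcripts assigned to a gene, differed for Stat3. It was 4088 bases in both dKO libraries and 4286 and 4279 bases in the Ctrl libraries. Stat5a was at 3504 and 3375 bases in dKO and 3600 and 3518 bases in Ctrl, and Cish at 2741 and 2691 bases in dKO and 2794 and 2945 bases in Ctrl. In these 3 genes both dKO libraries were shorter than both Ctrl libraries, which held for 17.7% of the 8728 tested genes whose length varied between libraries. In Stat4, Socs3 and Pim2 both dKO libraries were longer than both Ctrl libraries, by means of 8.47, 11.6 and 3.26 bases. The share of tested genes that were longer in this way was not computed. Stat5b and Socs2 overlapped between the groups, and Socs1 and Pim1 had the same length in every library. No test was made of these lengths, since the tables give no reads per transcript.

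Of the SOCS genes, Socs1 was the most abundant per length and Socs2 and Cish the least. Socs3, which encodes an inhibitor of signalling through the shared IL-6 receptor chain, had 296 and 179 CPM in dKO libraries and 116 and 137 CPM in Ctrl libraries. Both dKO libraries were above both Ctrl libraries, with dKO 1 far above dKO 2. The mean was 238 ± 82.9 CPM in dKO and 127 ± 14.9 CPM in Ctrl (SD, n = 2 each; log2 fold change 0.91, 95% interval 0.35 to 1.46, edgeR adjusted p = 0.209). Without dKO 2 the log2 fold change was 1.22 and passed (edgeR adjusted p = 0.0262, where 0.576% of tested genes passed), and without dKO 1 it was 0.50 (edgeR adjusted p = 0.626).

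Socs2, an inhibitor best known for limiting growth hormone signalling through STAT5, had 57.1 and 33.6 CPM in dKO and 13.1 and 25.04 CPM in Ctrl. The groups did not overlap, although dKO 2 and Ctrl 2 lay close to each other. Its fitted difference was the highest of the 10 genes, at 1.25 on the log2 scale or 2.38-fold (95% interval 1.34-fold to 4.23-fold, edgeR adjusted p = 0.251). It was 1.79 on the log2 scale without Ctrl 2 (edgeR adjusted p = 0.0510) and 0.82 without dKO 1 (edgeR adjusted p = 0.690), so its size depended on which library was left out.

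Socs1, which encodes a direct inhibitor of JAK kinases and restrains interferon responses, had 195 and 122 CPM in dKO and 147 and 169 CPM in Ctrl. Both Ctrl values lay between the dKO values, and the log2 fold change was 0.00 (95% interval -0.52 to 0.53, edgeR adjusted p = 0.9996). Cish, the STAT5-induced brake on IL-15 signalling, had 26.8 and 16.5 CPM in dKO and 40.8 and 19.8 CPM in Ctrl. Its highest library was Ctrl 1 and its lowest dKO 2, with overlapping groups (log2 fold change -0.48, 95% interval -1.34 to 0.37, edgeR adjusted p = 0.734). All 4 SOCS genes were higher in dKO 1 than in dKO 2. Within a library the TPM ratio of Socs3 to Socs1 was 0.622 and 0.599 in dKO and 0.324 and 0.340 in Ctrl, a narrower spread within each group than either gene had alone. The TPM ratio of Socs2 to Cish was 1.95 and 1.56 in dKO and 0.270 and 1.49 in Ctrl, so Ctrl 1 alone stood below the other 3 libraries.

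STAT dimers bind the palindrome TTCNNNGAA, and its matches within the promoters of Socs3 and Cish are shown because both are textbook STAT targets and their log2 fold changes, neither past the threshold, had opposite signs. Promoter windows of 300 bases, 250 before and 50 after each start, were taken from RefSeq (GRCm38.p6), which gave 13 windows for 9 of the 10 genes. Socs2 had no window, so its promoter was not searched for any of the elements given here or below. Each run below is written 5′ to 3′ on the gene's strand with the palindrome in capitals. The Socs3 run covers chr11:117969457-117969556 (minus strand). The Cish run covers chr9:107296653-107296682 (plus strand), where the first match begins at the RefSeq start and the second at base 12 of the RefSeq transcript. In GENCODE M21 both genes begin farther upstream, Socs3 at chr11:117970047 and Cish at chr9:107296026. For 10 of the 13 windows the first 30 transcribed bases were found in GENCODE M21 transcripts.
Socs3: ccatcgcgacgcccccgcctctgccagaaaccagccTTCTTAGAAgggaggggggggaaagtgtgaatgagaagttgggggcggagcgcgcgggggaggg
Cish: ccagttTTCCTGGAAagTTCTTGGAAatct
Among all 32851 promoter windows 8.30% hold TTCNNNGAA, and among the 13 windows here 2 do. The element that GABP binds, CCGGAAG on either strand, occurs in 8.86% of all windows and in 0 of these 13. A match is letters in a window and not a measured binding site, and the absence of one says only that these letters are not in that window.

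Of the PIM kinase genes, Pim2 was the most abundant of all 10 genes per length in both groups. Pim2 encodes a serine/threonine kinase that is active without further activation and supports survival and protein synthesis. It had 1021 and 917 CPM in dKO libraries and 393 and 598 CPM in Ctrl libraries. The dKO libraries were both above the Ctrl libraries, and the 2 Ctrl libraries were farther apart than the 2 dKO libraries. The mean was 969 ± 73.7 CPM in dKO and 495 ± 145 CPM in Ctrl (SD, n = 2 each), which is 1.96-fold (95% interval 1.40-fold to 2.74-fold, log2 fold change 0.97, SE 0.21). The smallest adjusted p among the 10 genes was that of Pim2 (edgeR adjusted p = 0.122). It passed without Ctrl 2 (log2 fold change 1.304, edgeR adjusted p = 0.0168), where 1.26% of tested genes did, and not without Ctrl 1 (0.69, edgeR adjusted p = 0.218).

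Pim2 is also the X-linked member, at chrX:7878262-7883432, while the others lie on chromosomes 1, 9, 10, 11, 16 and 17. Of 438 tested X-linked genes 6 (1.37%) were called, 3 higher and 3 lower, beside 0.611% of all tested genes. Xist itself is among the 3 called lower. Their median log2 fold change was -0.05, beside 0.01 over all tested genes. The log2 fold change was above that of Pim2 for 31 of them (7.08%), a share close to the 6.62% over all tested genes. The difference in Xist therefore stands beside the Pim2 value, and its part in it was not tested.

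Pim1, the kinase gene first found as a site of proviral insertion in mouse lymphomas and a classic STAT5 target, was expressed far lower. It had 27.5 and 30.9 CPM in dKO and 10.8 and 18.9 CPM in Ctrl. The groups did not overlap, and the mean was 29.2 ± 2.38 CPM in dKO and 14.8 ± 5.70 CPM in Ctrl (SD, n = 2 each; log2 fold change 0.98, 95% interval 0.30 to 1.66, edgeR adjusted p = 0.270). Pim1 was the member whose value depended most on the quantification. Its ratio of whole-number count to expected count was 2.29 and 2.51 in dKO and 2.73 and 3.42 in Ctrl, where the median over genes was 2.05 to 2.07. With the RSEM counts its log2 fold change was 1.39 (edgeR adjusted p = 0.0524). The TPM ratio of Pim2 to Pim1 was 41.0 and 36.1 in dKO and 48.0 and 52.9 in Ctrl.

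The promoter stretches of the PIM genes are shown because both genes had higher values in dKO, which lacks a GABP complex. The Pim2 run covers chrX:7878086-7878185 and the Pim1 run chr17:29490685-29490784, both on the plus strand, with the Ets core CGGAAG in capitals.
Pim2: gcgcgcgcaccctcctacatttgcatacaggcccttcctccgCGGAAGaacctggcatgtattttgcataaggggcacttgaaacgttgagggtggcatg
Pim1: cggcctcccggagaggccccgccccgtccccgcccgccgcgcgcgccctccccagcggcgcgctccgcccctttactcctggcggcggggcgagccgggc
CGGAAG, which is the last 6 letters of the GABP element, occurs on either strand in 16.9% of all windows and in 1 of the 13 windows here, that of Pim2. No capitals stand in the Pim1 run, as neither CGGAAG nor TTCNNNGAA is in it.

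**Figure D2:**
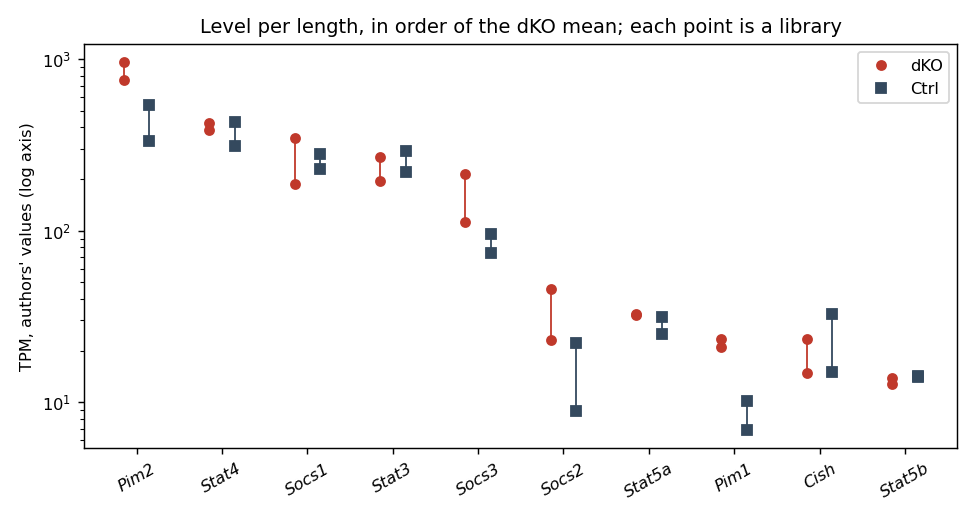
Level per length (TPM as the authors deposited it, log axis) of the 10 genes in order of their dKO mean, with a point for each dKO library (red circles) and each Ctrl library (dark squares) and a line joining the 2 libraries of a group. Pim2 stands highest in both groups, and Pim1 is eighth in dKO and last in Ctrl.

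Ordered by mean TPM, the dKO levels were Pim2 (858 ± 141), Stat4 (406 ± 28.9), Socs1 (267 ± 111), Stat3 (232 ± 50.5), Socs3 (164 ± 72.3), Socs2 (34.3 ± 16.1), Stat5a (32.5 ± 0.198), Pim1 (22.2 ± 1.68), Cish (19.1 ± 6.18) and Stat5b (13.3 ± 0.693) (SD, n = 2). The neighbours Socs1 and Stat3, Stat3 and Socs3, Socs2 and Stat5a, and Pim1 and Cish overlapped in this order. In Ctrl the mean TPM was highest for Pim2 (435 ± 147) and lowest for Pim1 (8.53 ± 2.32), with Stat5b (14.2 ± 0.0424) and Socs2 (15.6 ± 9.49) next above Pim1. There Pim2 overlapped its neighbour Stat4, which it did not in dKO.

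**Figure D3:**
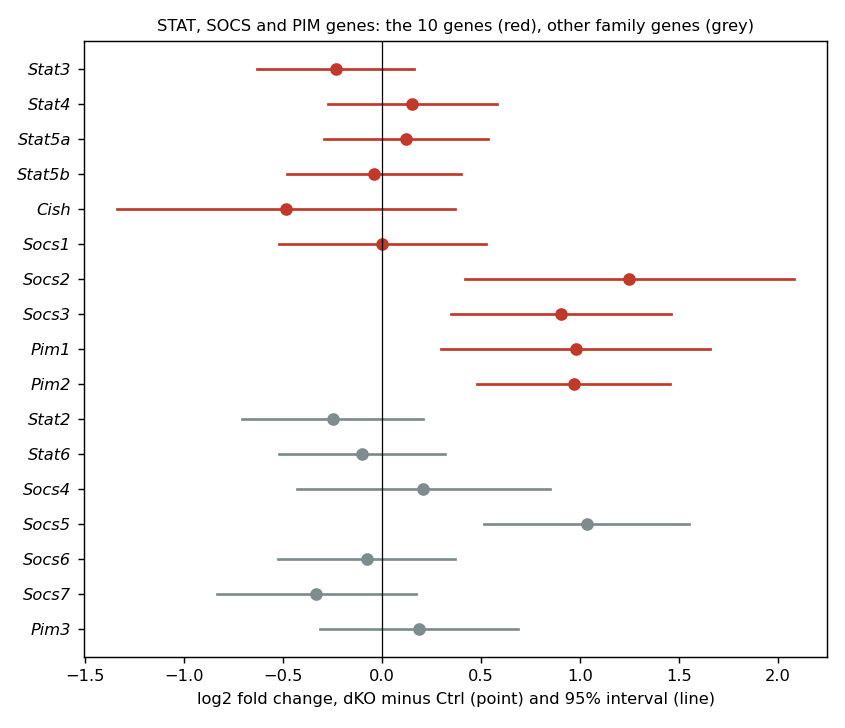
Log2 fold change of dKO minus Ctrl (points) with 95% intervals (lines) for the 10 genes in red and 7 other STAT, SOCS and PIM family genes in grey. The intervals of Socs2, Socs3, Pim1, Pim2 and Socs5 lie above 0, and none of these genes passed the adjusted threshold.

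None of 7 other family genes passed either (edgeR), with 3 positive and 4 negative log2 fold changes and a median of -0.08, beside 0.01 over all tested genes. Socs5, a less studied SOCS gene, had 27.2 and 24.99 CPM in dKO and 12.2 and 13.2 CPM in Ctrl. Both dKO values were above both Ctrl values, with a log2 fold change of 1.03 (95% interval 0.52 to 1.55, edgeR adjusted p = 0.119). Socs7, another SOCS family gene, had 18.9 and 20.2 CPM in dKO and 22.8 and 26.3 CPM in Ctrl. Its dKO values were both lower, with a log2 fold change of -0.33 (95% interval -0.83 to 0.17, edgeR adjusted p = 0.676). Pim3, the third PIM kinase gene, had a log2 fold change of 0.19 (edgeR adjusted p = 0.841).

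Upstream of the STATs, none of 22 cytokine receptor chain and JAK genes was called, with 10 positive and 12 negative log2 fold changes and a median of -0.09. Jak3, the kinase bound to the common gamma chain, had 157 and 146 CPM in dKO and 253 and 263 CPM in Ctrl (log2 fold change -0.77, 95% interval -1.10 to -0.43, edgeR adjusted p = 0.0790). Il7r, the IL-7 receptor chain, had 91.7 and 90.6 CPM in dKO and 127 and 221 CPM in Ctrl, so its Ctrl libraries differed more from each other than the dKO libraries did (log2 fold change -0.93, edgeR adjusted p = 0.213). Both genes had each dKO library below each Ctrl library. Without Ctrl 1 Il7r passed (log2 fold change -1.28, edgeR adjusted p = 0.0221), where 0.676% of tested genes did, and without Ctrl 2 its log2 fold change was -0.48 (edgeR adjusted p = 0.314).

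Of 14 other inhibitors of the pathway 1 was called higher and 1 lower. Their log2 fold changes were positive for 4 and negative for 10, with a median of -0.05. The share called over all tested genes was 0.611%. Dusp2, a nuclear phosphatase gene that acts on MAP kinases and also on STAT3, rose, with 626 and 638 CPM in dKO and 195 and 94.3 CPM in Ctrl (log2 fold change 2.13, SE 0.31, edgeR adjusted p = 0.0286). It missed the threshold without dKO 1 (edgeR adjusted p = 0.116) or dKO 2 (edgeR adjusted p = 0.107). Usp18, which blocks the type I interferon receptor and is itself induced by interferon, fell, with 23.99 and 24.2 CPM in dKO and 71.3 and 68.5 CPM in Ctrl (log2 fold change -1.54, SE 0.18, edgeR adjusted p = 0.0137).

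Downstream, genes known to depend on a STAT or to be handled by PIM kinases gave 1 call in 4 lists. Over all tested genes 0.611% were called. None of 14 STAT5-dependent survival and growth genes passed, with 10 negative log2 fold changes and a median of -0.28. Prf1, the perforin gene, had 1211 and 1189 CPM in dKO and 1688 and 1723 CPM in Ctrl (log2 fold change -0.51, edgeR adjusted p = 0.224), and Il2ra, the high-affinity IL-2 receptor chain, had 9.06 and 8.27 CPM in dKO and 11.6 and 15.9 CPM in Ctrl (-0.67, edgeR adjusted p = 0.465). These 2 genes thus ran opposite in sign to Pim1, Pim2 and Socs2. None of 10 STAT4-dependent genes passed (median -0.07), where Gadd45g, a stress-response gene, had a log2 fold change of 0.83 (edgeR adjusted p = 0.273) and the IL-12 receptor gene Il12rb2 had -0.41 (edgeR adjusted p = 0.390).

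Of 12 tested STAT3-dependent genes only Fos, an immediate early transcription factor gene, was called, and it was higher in dKO. The log2 fold changes of the list were positive for 8 and negative for 4, with a median of 0.08. Fos had 462 and 517 CPM in dKO and 212 and 197 CPM in Ctrl (log2 fold change 1.26, edgeR adjusted p = 0.0144). None of 12 PIM substrate and regulator genes passed (median 0.17). The PIM substrate Akt1s1, an inhibitor of mTOR complex signalling, had a log2 fold change of 0.66 (edgeR adjusted p = 0.269) and the transcription factor Foxo1 0.61 (edgeR adjusted p = 0.424).

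**Figure D4:**
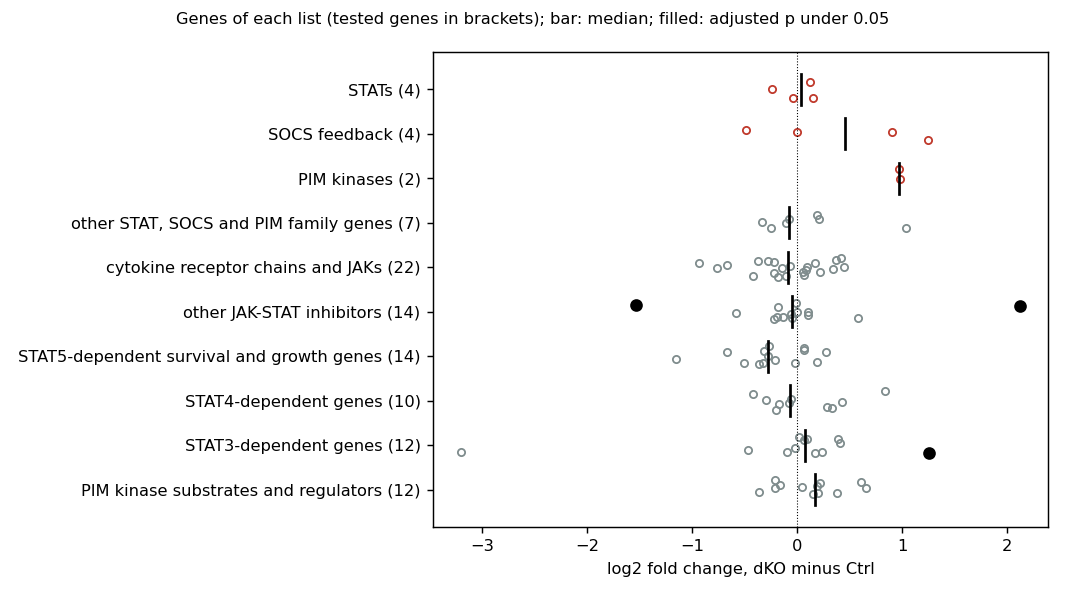
Log2 fold change of dKO minus Ctrl for each tested gene of the 3 groups of members (red) and 7 pathway lists (grey), with the list median as a bar and genes past the adjusted threshold filled in black. The filled points are Usp18 and Dusp2 among the inhibitors and Fos among the STAT3-dependent genes.

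Transcripts of other cells and immediate early genes, which handling can induce, differed between libraries too. T cell markers had a summed level of 245 and 252 TPM in dKO and 528 and 614 TPM in Ctrl. Of these 11 genes 2 were called lower (Cd3e and Trac, edgeR), where 0.611% of tested genes were called in either direction. All 11 had negative log2 fold changes. Both dKO libraries lay below both Ctrl libraries for 8 of them, where 19.9% of tested genes did so. Themis had 0 counts in dKO 1. In bulk samples, fewer cells of a type and less RNA per cell cannot be told apart. Neutrophil and precursor markers summed to 2909 and 4754 TPM in dKO and 4159 and 5174 TPM in Ctrl, and monocyte and macrophage markers to 3289 and 3508 TPM in dKO and 2767 and 3277 TPM in Ctrl, with no call among 12 and 7 tested genes and none at 0. The granule genes of neutrophil precursors varied between libraries, none past the threshold. Mpo had 59.7 and 55.5 CPM in dKO and 348 and 104 CPM in Ctrl (log2 fold change -1.97, edgeR adjusted p = 0.155), and Elane (-1.99, edgeR adjusted p = 0.112) and Prtn3 (-1.75, edgeR adjusted p = 0.284) also had both dKO libraries below both Ctrl libraries. Ctsg, another of these genes, overlapped between the groups, with 2.02 and 4.04 CPM in dKO and 13.1 and 3.40 CPM in Ctrl. Of the 12 neutrophil and precursor markers, 3 had both dKO libraries below, where 19.9% of tested genes did, and 0 had both above. Their log2 fold changes were positive for 2 and negative for 10. Ctrl 1 was the highest library for Mpo, Elane and Prtn3. Among the 10 genes it was the lowest for Socs2, Socs3, Pim1, Pim2, Stat4 and Stat5a and the highest for Cish. B lineage markers summed to 133 and 164 TPM in dKO and 148 and 313 TPM in Ctrl. Erythroid markers summed to 4149 and 6943 TPM in dKO and 5295 and 8055 TPM in Ctrl. Neither list had a call or a gene at 0. The log2 fold change was negative for 10 of 10 B lineage, 8 of 9 erythroid and 3 of 7 monocyte and macrophage markers. Both dKO libraries lay below both Ctrl libraries for 3, 0 and 0 of them, where 19.9% of tested genes did so. Immediate early genes summed to 4650 and 3436 TPM in dKO and 3184 and 3162 TPM in Ctrl. Of these 12 genes 3 were called higher (Fos, Fosb and Jun, edgeR), beside the same 0.611% of all tested genes. The list median was 0.13 on the log2 scale, with 7 genes above 0 and 5 below. Both dKO libraries lay above both Ctrl libraries for 4 of the 12, where 21.7% of tested genes did so. Both lay below for 3 of the 12, among them Egr1 (-0.68, edgeR adjusted p = 0.222) and Egr2 (-0.56, edgeR adjusted p = 0.409), where 19.9% of tested genes did so. The summed level was highest in dKO 1, which was also the highest library for Socs1, Socs2, Socs3 and Pim2. The called genes did not all follow this sum. In dKO 1 and dKO 2, Fos had 462 and 517 CPM, Fosb 14.6 and 18.0 CPM and Jun 403 and 369 CPM. The part of these transcripts in the values of the 10 genes was not tested.

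**Figure D5:**
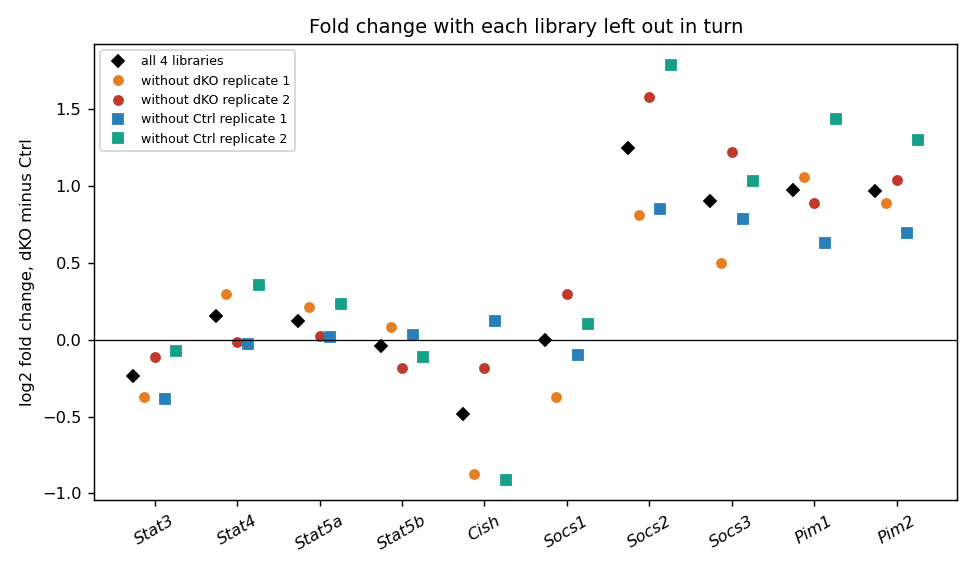
Log2 fold change of dKO minus Ctrl of the 10 genes with all 4 libraries (black) and with each library left out in turn (orange and red for dKO, blue and green for Ctrl). Socs2, Socs3, Pim1 and Pim2 stay above 0 in every fit, while Stat4, Stat5b, Cish and Socs1 fall on both sides of 0.

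With each library left out in turn, the log2 fold change ran between 0.82 and 1.79 for Socs2, 0.50 and 1.22 for Socs3, 0.63 and 1.44 for Pim1 and 0.69 and 1.304 for Pim2. Because both dKO libraries lay above both Ctrl libraries in these genes, a positive sign in each such fit follows from the values and adds nothing. Cish ran between -0.91 and 0.13, and its sign turned without Ctrl 1. Socs1 ran between -0.37 and 0.30, with a negative sign without dKO 1 or Ctrl 1. Stat4 ran between -0.0282 and 0.359 and turned negative without dKO 2 or Ctrl 1, and Stat5b ran between -0.182 and 0.0866 and turned positive without dKO 1 or Ctrl 1. Stat3 ran between -0.38 and -0.07 and Stat5a between 0.02 and 0.23, with no change of sign.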

How the data were processed

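Total RNA of sorted NK cells was made into libraries by the Smart-seq2 protocol, per the labels' protocols. Per the submitters' processing notes the build was mm9 and the tools were TopHat2 2.1.1, HTSeq 0.6.1, RSEM 1.3.0, Trimmomatic 0.36, FastQC 0.11.5 and DESeq2 1.32.0. Each sample has a deposited table of whole-number counts and a deposited RSEM table of expected counts, TPM, FPKM and lengths, per the file headers. The median ratio of count to expected count was 2.05 to 2.07, so counting error may be larger than the counts alone give. Reads without a gene or with more than 1 (2.20% to 2.34%) were left out of library sizes. Those without a gene made up 23.8% and 24.3% in dKO and 18.1% and 21.5% in Ctrl, so this share was higher in both dKO libraries.

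The counts entered edgeR 4.0.16 (R 4.3.3; TMM scaling, minimum count 10, robust quasi-likelihood test), with Benjamini-Hochberg adjustment over 13904 genes. An SE is the size of the log2 fold change over the root of its F value. CPM values are TMM-scaled. TPM and FPKM were not tested. In simulated counts with 200 changed genes the procedure (mean of at least 5 CPM) found 59.8% of 2-fold and 98.1% of 4-fold changes. Of its calls there 7.04% were false, at an adjusted p threshold of 0.05. The members, the gene lists and the rule for named genes were chosen with earlier results of these data known. That rule named the 10 members, the GABP subunits and, per pathway list, up to 4 called genes or the 2 with the smallest p. One gene of the list of other family genes is not reported here. Pim3 and the markers Cd3e, Trac, Themis, Mpo, Elane, Prtn3, Ctsg, Fosb, Jun, Egr1 and Egr2 were named after their values were seen. DESeq2 1.42.0, limma 3.58.1, other scalings and filters, RSEM counts, a replicate block and leaving out each library were alternatives.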

Additional observations from a re-analysis of the deposited data

How the results depend on the processing

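Genes called over the whole table numbered 85 (44 higher, 41 lower), against 559 of 23322 tested without the count filter (256 higher, 303 lower), 134 with a stricter filter (68 and 66) and 398 with DESeq2 (183 and 215). With each library left out they numbered 73 to 187 (31 to 94 higher, 32 to 93 lower), the most without Ctrl replicate 2. Of the 10 genes, 4 were called without the filter, 3 with DESeq2, 0 to 1 with a library left out, and 0 in the remaining settings. The cause was not tested. The log2 fold change of Socs1 was negative with RLE scaling (-0.00855), without the filter (-0.00696), with DESeq2 (-0.00857), with limma-voom (-0.0310) and with the replicate block (-0.0331). With a library left out, the ranges that crossed 0 were those of Stat4 (-0.0282 to 0.359), Stat5b (-0.182 to 0.0866), Cish (-0.91 to 0.13) and Socs1 (-0.37 to 0.30). Outside these, Socs2, Socs3, Pim1, Pim2 and Stat5a kept positive values in all settings, and Stat3 kept negative values. For Socs2, Socs3, Pim1 and Pim2 the sign with a library left out follows from groups that do not overlap, and it adds nothing. Levels per length kept their order with FPKM, and with whole-number counts per length Cish and Stat5b changed places in dKO.

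The replicate number appears in both groups, but same-numbered libraries did not deviate together (r = -0.05 over 13904 genes). With 2 libraries a group this cannot decide whether the number marks a pairing of the samples. With it as a replicate block 100 genes and 0 of the 10 were called. Simulated 2-fold changes at 5 CPM or more were found in 59.8% of cases, so a miss near 2-fold does not show that a gene stayed level.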
